A study of Mus musculus with 16 samples.

Results

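The T-lineage specification factors described here are 10 transcription factor genes that act early in T-cell development: Tcf7, Lef1, Bcl11b, Gata3, Tcf3, Tcf12, Runx1, Runx3, Ikzf1 and Myb. They were chosen by symbol, with earlier results on these libraries known. All 10 were found among the 55414 gene identifiers of the count table, and all 10 passed the minimum of a mean of 10 counts per library that left 18878 identifiers for testing. The lowest count of any of the 10 in any library was 707, for Gata3.

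RNA was sequenced in bulk from leukaemia-propagating cells (LPC), the sorted cells taken to carry a leukaemia forward, in 16 libraries. The cells came from a mouse model labelled pro-B acute lymphoblastic leukaemia, in which a Kmt2a-AFF1 fusion is combined with overexpression of the microRNA miR-128a. Every group carried both alterations, and no group without them is among these libraries. The niche was bone marrow (BM) or central nervous system (CNS). One sort took Lin- Sca1+ cKit+ cells that carried IL7R (LSK), and the other took Lin- cells with cKit but no Sca1 (LK, labelled LK/CLP), with 4 libraries in each of BM LSK, CNS LSK, BM LK and CNS LK. The labels do not give the animals' age, what drives the microRNA, or whether the libraries of a group came from separate animals. The p-values therefore measure only the spread between these libraries, which may be technical. A BM and a CNS library of the same LPC type and number share the first part of their description label and are called a label pair here, which gives 8 pairs (LSK 1 to 4 and LK 1 to 4).

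T-cell specification starts when progenitors that reach the thymus receive Notch signals. Notch switches on Tcf7, which encodes TCF-1, and Gata3, and these open the way to Bcl11b, which closes off other lineages. The E proteins encoded by Tcf3 and Tcf12, the RUNX factors, IKAROS from Ikzf1 and MYB serve in B-cell and stem cell programmes too, so that Tcf7, Bcl11b and Gata3 are the members tied most closely to the T lineage.

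The upstream sequences of 3 members are shown because Lef1 and Gata3 carried the differences between niches described further on, and Runx3 was the member whose window held the most matches to binding motifs of the 10 factors themselves. Each is the 250 bases before an annotated start, 5′ to 3′ on the gene's strand, from the RefSeq promoter table on GRCm38.p6, an older build than the GRCm39 named in the submitters' processing notes. The table holds 4 windows for Lef1, 2 for Runx3 and 1 for Gata3; for every member the window of the start farthest 5′ was used, and the others were not searched. Capitals mark motif matches on either strand.
Lef1, chr3:131110047-131110296, plus strand: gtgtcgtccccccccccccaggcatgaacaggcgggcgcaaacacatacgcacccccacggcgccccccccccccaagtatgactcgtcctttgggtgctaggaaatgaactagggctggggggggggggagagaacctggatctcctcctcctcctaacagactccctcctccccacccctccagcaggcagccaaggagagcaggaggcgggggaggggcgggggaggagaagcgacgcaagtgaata
Gata3, chr2:9878601-9878850, minus strand: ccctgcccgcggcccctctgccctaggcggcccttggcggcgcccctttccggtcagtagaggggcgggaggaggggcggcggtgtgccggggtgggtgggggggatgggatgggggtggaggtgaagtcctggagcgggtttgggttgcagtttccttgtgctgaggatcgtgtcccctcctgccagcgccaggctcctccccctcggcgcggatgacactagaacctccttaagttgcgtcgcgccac
Runx3, chr4:135120395-135120644, plus strand: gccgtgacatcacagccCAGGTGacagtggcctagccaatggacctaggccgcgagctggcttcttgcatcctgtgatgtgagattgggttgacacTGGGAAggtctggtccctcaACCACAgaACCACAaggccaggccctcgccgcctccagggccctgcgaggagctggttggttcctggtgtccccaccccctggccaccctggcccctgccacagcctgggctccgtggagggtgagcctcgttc
The motifs searched on both strands were CTTTGA or CTTTGT for TCF-1 and LEF1, CAGGTG or CAGCTG for E proteins, TGTGGT for RUNX, AGATAA for the GATA family, TGGGAA for IKAROS (letters that also lie in the core of the site of RBPJ, the DNA-binding partner of Notch) and CAACNG for MYB. Among 32851 windows of the same length in the table, 27.6% held a TCF/LEF match, 27.7% an E-box, 14.0% a RUNX match, 9.99% a GATA match, 21.6% an IKAROS match and 29.3% a MYB match. The Runx3 window held 2 RUNX matches, written ACCACA on this strand, 134 and 126 bases before the start, with an E-box 233 bases and an IKAROS match 154 bases before it. The Lef1 and Gata3 windows held none of the 6 motifs, and none of the 10 windows held the GATA letters. A TCF/LEF match was present in the windows of Bcl11b, Tcf3, Tcf12 and Ikzf1. The Lef1, Gata3 and Runx3 windows were 66.4%, 70.0% and 65.2% G or C, against a median of 52.4% over all windows. A match is a description of letters, not of binding.

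All 10 factors were expressed in every library, and Tcf7 had the highest level. Per kilobase of exon (GENCODE gene models of mouse), Tcf7 reached 219.6 ± 20.7 CPM (library-scaled counts, the unit of all levels here; SD over the 16 libraries), and its lowest library (180.0) was above the highest library of any other member. Ikzf1 followed at 50.7 ± 3.63, also clear of the next member. Bcl11b (35.9 ± 2.45), Myb (34.0 ± 2.17), Tcf3 (33.1 ± 3.96), Tcf12 (25.4 ± 1.06), Runx3 (24.0 ± 2.86), Lef1 (20.3 ± 4.00), Runx1 (13.2 ± 1.20) and Gata3 (9.62 ± 1.17) came next on the same scale. Each neighbour in that series overlapped the next in its range over libraries, so only the first 2 places were separated on this scale. The length used is that of all annotated exons of a gene, whether or not its transcripts here contain them. In CPM not divided by length, Tcf7 was still highest (472 to 669.5 over the libraries). Tcf12 (371 to 433) then lay above Ikzf1 (257 to 327), so the place of Ikzf1 depends on the lengths.

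**Figure D1:**
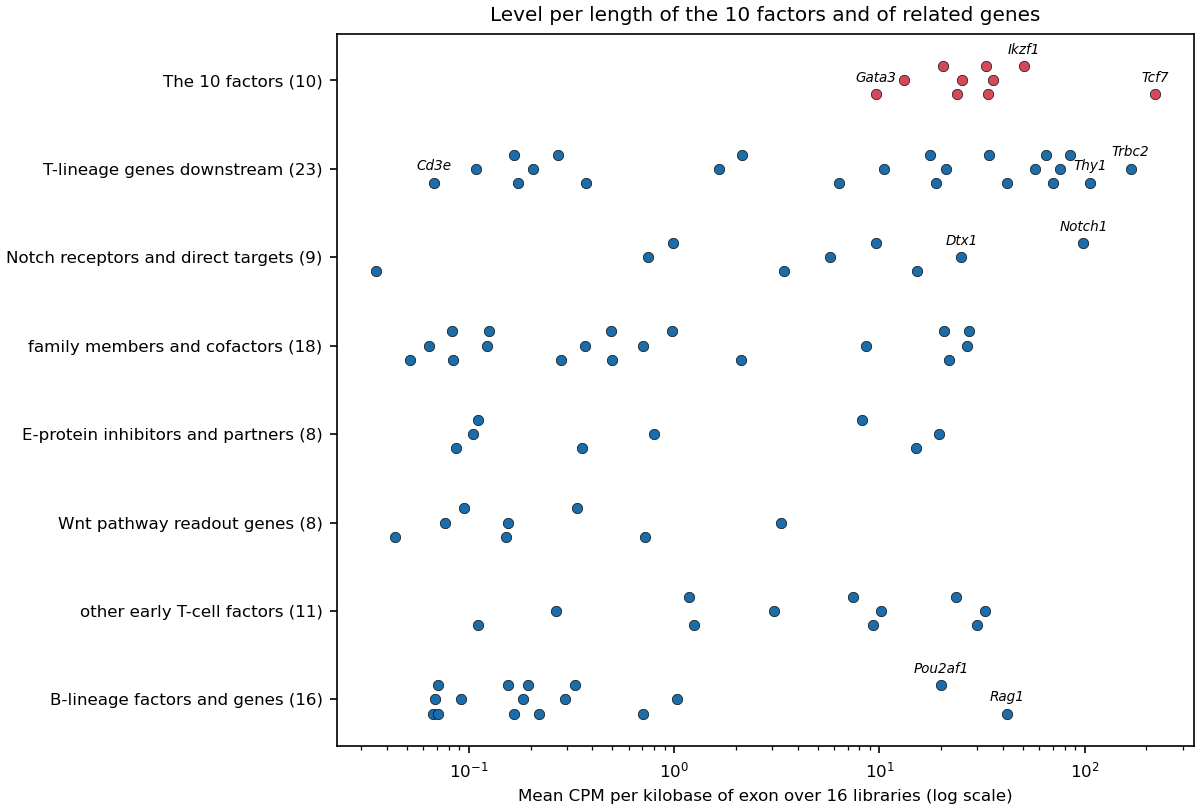
Mean CPM per kilobase of exon over the 16 libraries (log axis) for the 10 factors (red) and for 7 lists of related genes (blue), 1 point per gene, with the number of genes in brackets. Tcf7 is the rightmost red point at 219.6 and Gata3 the leftmost at 9.62, while most B-lineage genes lie under 1.

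The label of the samples was checked against genes of both lymphoid lineages. Of 16 B-lineage genes, 9 stayed under 2 CPM in all 16 libraries, among them Ebf1, Pax5, Igll1 and Vpreb1. Pax5 and Ebf1, the factors that set B-cell identity, averaged 0.594 and 0.667 CPM. For comparison with silent genes, 1969 olfactory and vomeronasal receptor genes averaged 0.0948 to 0.327 CPM per gene in a library. Pou2af1, a B-cell coactivator, was measured at 50.7 CPM on average, and Rag1, which cuts antigen receptor genes in both lineages, at 275 CPM. Downstream T-lineage genes were mixed. Il2ra (483.5 CPM), Thy1 (319.7), Lck (222), Lat (159), Trbc2 (116), Cd247 (112) and Ptcra, the pre-T-cell receptor chain (90.1), were well measured, whereas 6 of 23 (Cd3d, Cd3e, Cd3g, Cd5, Rag2 and Trac) stayed under 2 CPM in every library. Notch1 averaged 1404 CPM and its target Dtx1 132 CPM. These libraries held the factors of the T lineage and part of its downstream genes, and had 9 of 16 B-lineage genes, Pax5 and Ebf1 among them, under 2 CPM throughout, which goes against the pro-B label.

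Total counts ran from 19163942 to 29232623 per library, of which 54.7 to 61.0% lay in identifiers with a symbol. Of the marker lists of other cells, that of mature T and NK cells summed to 197 to 265.0 CPM, most of it from Trbc2 (116 CPM on average), Trbc1 (48.3) and the granzyme gene Gzma (47.7), while 9 of its 15 genes stayed under 2 CPM. The other lists were lower: myeloid markers summed to 1.91 to 4.06 CPM in BM and 1.91 to 6.79 CPM in CNS libraries, microglial markers to 3.53 to 6.34 CPM, erythroid markers to 2.13 to 3.91 CPM, and neural, glial and meningeal markers to 33.3 to 46.1 CPM in BM and 35.6 to 60.5 CPM in CNS libraries. Nearly all of the neural, glial and meningeal sum came from 1 gene, Mbp (36.2 CPM on average), and the next highest, Aqp4, averaged 1.71 CPM. The receptor genes served as a background index, their summed CPM among counts with a symbol, which ran from 312 to 1125 CPM and was higher in the CNS library in 7 of 8 pairs. BM LSK 3 and BM LK 4 had the lowest indices (312 and 342 CPM) and the fewest detected identifiers, 33600 and 35316 against up to 46067 in the other libraries.

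The TCF-1 and LEF1 proteins bind the same DNA letters, recruit either β-catenin or Groucho repressors, and overlap in function in early T cells. Tcf7 was measured at 501, 561, 533 and 619 CPM in BM LSK 1 to 4 and at 472, 543, 539 and 626 CPM in CNS LSK. In LK cells it was measured at 585, 567, 664 and 613 CPM in BM and at 599.8, 574, 669.5 and 557 CPM in the CNS. The 4 groups overlapped, with LSK 1 lowest in both niches and LK 3 highest in both. Lef1 ran from 122 to 239 CPM, a ratio of 1.95 between highest and lowest library and the widest of the 10 members. It was measured at 163, 151, 138 and 182 CPM in BM LSK and at 195, 198, 176 and 227 CPM in CNS LSK. In LK cells it was measured at 124, 204, 122 and 182 CPM in BM and at 158, 239, 177 and 223 CPM in the CNS. LK 2 and LK 4 were high and LK 1 and LK 3 low in both niches, and the niches overlapped within each LPC type, although each CNS library was above the BM library of its own pair.

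Gata3 encodes a zinc-finger factor needed for T-cell commitment. It had the lowest level of the 10, measured at 38.1, 31.8, 31.4 and 36.2 CPM in BM LSK 1 to 4 and at 43.5, 40.4, 43.4 and 45.2 CPM in CNS LSK. All 4 CNS LSK libraries were above all 4 BM LSK libraries, as was so for 2.09% of tested identifiers; no other member was separated in that way. No member had separate groups the other way in LSK (1.59% of identifiers), between niches in LK (1.37% with CNS above BM and 0.81% with BM above CNS), or between LPC types in BM (1.49% with LSK above LK and 1.64% with LK above LSK) or in the CNS (2.37% and 1.28%). In LK cells Gata3 was measured at 33.0, 41.9, 34.6 and 33.0 CPM in BM and at 39.3, 44.4, 39.1 and 37.2 CPM in the CNS, where BM LK 2 overlapped the CNS range. Bcl11b, the commitment factor downstream of both, was even: 289 ± 18.8 CPM in BM LSK, 288 ± 19.5 in CNS LSK, 288 ± 7.26 in BM LK and 300.5 ± 32.3 in CNS LK (SD, n = 4 each, as for all groups).

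The E proteins E2A (Tcf3) and HEB (Tcf12) bind E-boxes as dimers. Tcf12 was the steadiest member, from 371 to 433 CPM over the libraries (ratio 1.17), with means of 386 ± 11.4 in BM LSK, 399 ± 26.8 in CNS LSK, 391 ± 11.2 in BM LK and 399 ± 14.3 in CNS LK. Tcf3 was measured at 140.4 ± 13.7, 132 ± 12.5, 132 ± 16.7 and 130.2 ± 23.9 CPM in the same order, with its lowest library in CNS LK 4 (100.3).

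RUNX1 and RUNX3 share a DNA-binding domain and the partner CBFβ; in T cells RUNX3 is known for silencing Cd4. Runx1 was measured at 169 ± 13.8 CPM in BM LSK, 158 ± 19 in CNS LSK, 154 ± 13.3 in BM LK and 154 ± 10.5 in CNS LK. Runx3 was measured at 116 ± 13.7, 115 ± 21.7, 125 ± 10.7 and 124 ± 12.1 CPM in the same order, and CNS LSK held both its lowest (87.5) and its highest (138) library.

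IKAROS, a zinc-finger factor of all lymphoid cells that restrains Notch targets, and MYB, a proto-oncogene of immature blood cells, completed the set. Ikzf1 was measured at 294 ± 13.0 CPM in BM LSK, 278 ± 10.2 in CNS LSK, 304 ± 24.0 in BM LK and 297 ± 29.2 in CNS LK. Myb was measured at 307 ± 16.7, 292 ± 21.1, 310.3 ± 6.02 and 305 ± 29.3 CPM in the same order. Over the 40 combinations of member and group, the spread between libraries (SD over mean) ran from 1.94% for Myb in BM LK to 26.2% for Lef1 in BM LK, against medians of 9.67 to 11.3% over all genes with a mean of at least 50 counts.

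**Figure D2:**
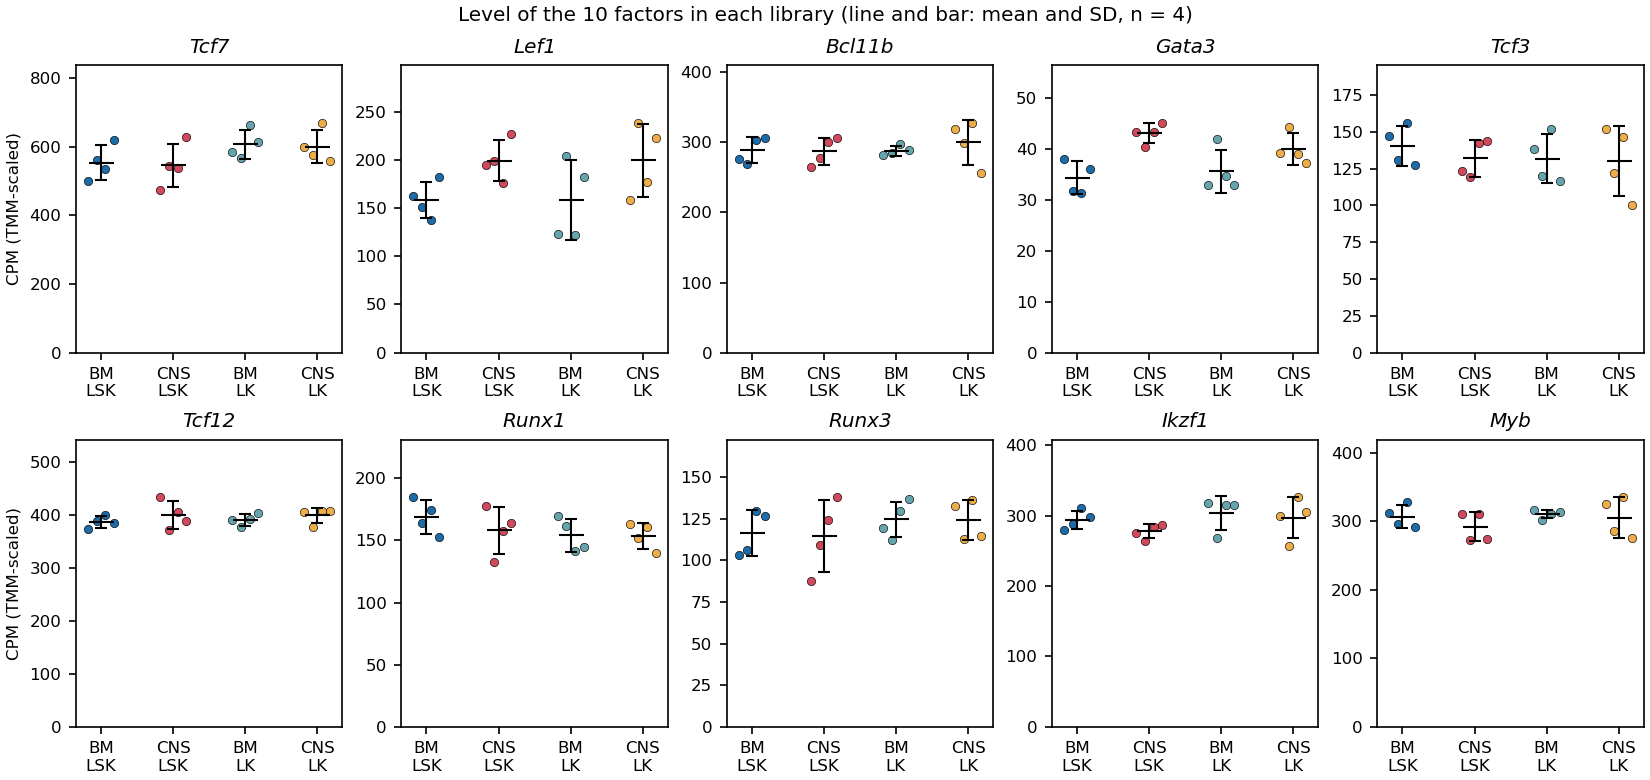
CPM on TMM-scaled library sizes for each of the 10 factors in its own panel, by group, with 1 point per library and a line and bar for mean and SD (n = 4). The means lie close together in most panels; all CNS LSK points of Gata3 lie above all BM LSK points, and Lef1 in BM LK has 2 low and 2 high libraries.

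The design compared cells by niche, CNS against BM. Gata3 and Lef1 were higher in the CNS library in all 8 label pairs, as was so for 1.49% of tested identifiers. No member was lower in all 8 (1.45% of identifiers). For Lef1 the count is a description only, because an earlier analysis had singled it out in LK cells. Its 4 LK pairs are therefore no independent evidence. The difference within a pair ran from 0.23 to 0.54 for Lef1 (log2; mean 0.34, SD 0.095) and from 0.08 to 0.47 for Gata3 (mean 0.25, SD 0.12). Tcf12 was higher in the CNS in 7 pairs, Tcf7, Bcl11b and Runx3 in 5, Tcf3 in 3, Runx1 and Myb in 2 and Ikzf1 in 1, with mean differences between −0.06 and 0.04. The interval of the difference over both LPC types reached from −0.23 to 0.16 at its widest for these 8 members without the pairs, and from −0.16 to 0.12 with them.

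**Figure D3:**
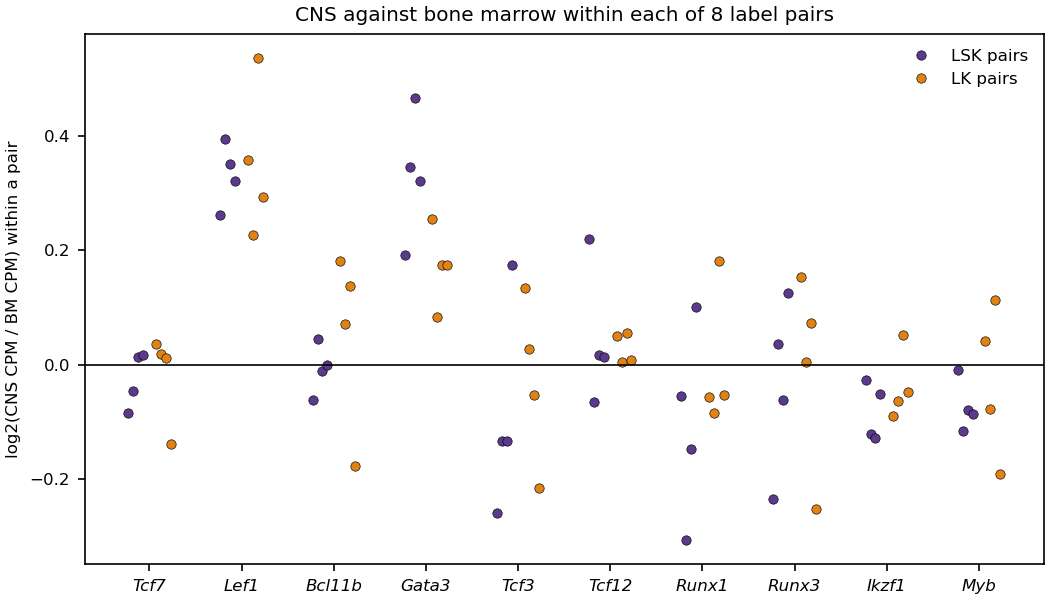
Log2 ratio of the CNS to the BM level of each factor within each of the 8 label pairs (purple, LSK pairs; orange, LK pairs). All 8 points are above 0 for Lef1 (0.23 to 0.54) and for Gata3 (0.08 to 0.47), and points lie on both sides of 0 for each of the others.

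Over both LPC types, edgeR's quasi-likelihood test with Benjamini-Hochberg adjustment, run on 16 libraries without the pairs, called 0 of the 10 members and 0% of all 18878 identifiers (1727 had an unadjusted p under 0.05; DESeq2 called 40 identifiers, 0.212%, and no member). Gata3 was higher in the CNS by 0.25 ± 0.062 (log2, SE; adjusted p = 0.304). With the label pair as a block, Gata3 passed the test at 0.25 ± 0.044 (adjusted p = 0.00771, edgeR), in a fit that called 0.286% of identifiers as higher and 0.381% as lower. It passed in each of the 8 fits that left out 1 pair (adjusted p from 0.00665 to 0.0396, edgeR). With the background index added to the block, the Gata3 difference was 0.20 and the call ended (adjusted p = 0.592, edgeR; 18 identifiers were called in all). The index was higher in the CNS library in 7 of 8 pairs, and its part in the Gata3 result was not tested further.

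An earlier analysis of these libraries had singled out Lef1 in LK cells, so its differences in LK and over both LPC types are a description with no test. Over both types Lef1 was higher in the CNS by 0.33 ± 0.11 without the pairs and by 0.34 ± 0.041 with them (log2, SE), and by 0.33 with pairs and background index. The other 8 members had values from −0.06 to 0.04 without the pairs: Ikzf1 −0.06, Tcf3 −0.05, Runx1 −0.05, Myb −0.05, Tcf7 −0.02, Runx3 −0.01, Bcl11b 0.03 and Tcf12 0.04 (adjusted p from 0.812 to 0.988, edgeR). None passed with the pairs either (adjusted p from 0.519 to 0.914, edgeR). The median over the 10 members was −0.02, and over all identifiers it was 0.00 to 2 decimals.

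In LSK cells alone, Gata3 was 0.33 ± 0.088 higher and Lef1 0.33 ± 0.15 higher in the CNS without the pairs (log2, SE; both adjusted p = 0.855, edgeR), and 0 of 10 members and 0% of identifiers were called (1083 had an unadjusted p under 0.05; DESeq2 called 0). With the label pair as a block, both passed: Lef1 at 0.33 ± 0.058 (adjusted p = 0.0189) and Gata3 at 0.33 ± 0.062 (adjusted p = 0.0407), in an edgeR fit that called 0.0371% of identifiers as higher. Lef1 was higher in the CNS in 4 of 4 LSK pairs, and so was Gata3. The Lef1 call was lost without pair LSK 2 or LSK 3, with adjusted p up to 0.182 (edgeR). The Gata3 call was lost without any 1 of LSK 2, LSK 3, LSK 4, LK 1 and LK 3, with adjusted p up to 0.338 (edgeR). Adding the background index ended both calls, at 0.32 for Lef1 (adjusted p = 0.354) and 0.27 for Gata3 (adjusted p = 0.874, edgeR).

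In LK cells Gata3 was 0.17 ± 0.088 higher in the CNS (log2, SE; adjusted p = 1.00, edgeR; 0.665 with the pairs), and Lef1 was 0.34 ± 0.15 higher, or 0.35 with the pairs. Leaving out single libraries moved the Lef1 value between 0.23 (without BM LK 3) and 0.48 (without BM LK 2). No member passed without the pairs, where 0% of identifiers passed (754 with an unadjusted p under 0.05; DESeq2 called 0). The difference between LPC types in the niche effect was 0.16 ± 0.12 for Gata3 (LSK minus LK; 95% interval −0.099 to 0.42) and −0.01 ± 0.22 for Lef1, with a 95% interval of −0.46 to 0.45; 0 identifiers passed that test with or without the pairs, in edgeR or DESeq2 (281 had an unadjusted p under 0.05 without the pairs). With the pairs the interval was −0.19 to 0.15 for Lef1 and −0.025 to 0.35 for Gata3. A different niche effect in LSK and LK was not detected for either gene; for Gata3 the interval reached as far as the niche effect in LSK, and for Lef1 it did so only without the pairs.

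**Figure D4:**
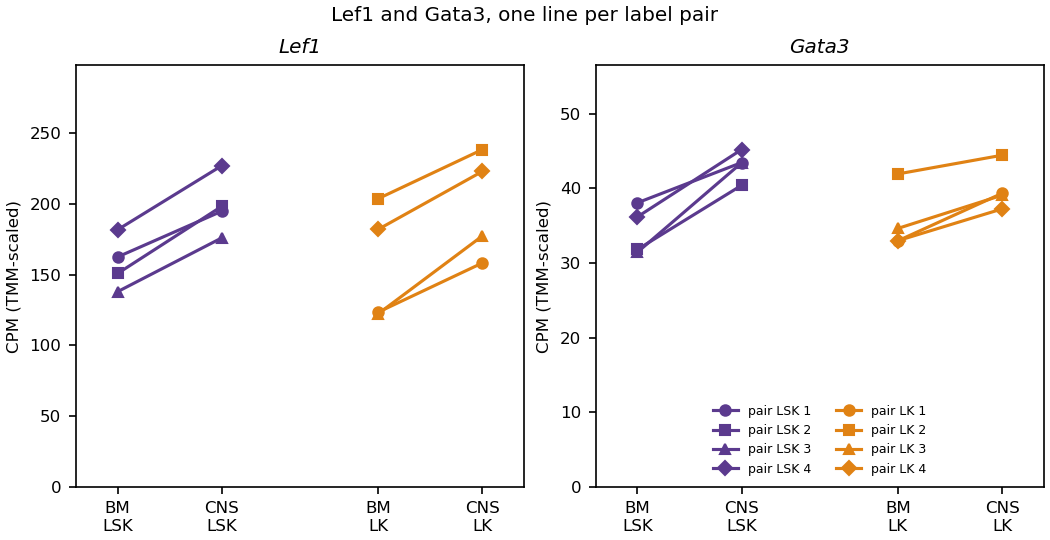
CPM of Lef1 (left) and Gata3 (right) in the BM and the CNS library of each label pair, joined by a line (purple, LSK; orange, LK; marker shape, pair number; both axes start at 0). Each of the 16 lines rises from BM to CNS; the Lef1 lines of LK 2 and LK 4 start above the CNS level of LK 1.

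The design also compared LSK with LK cells. In BM, in the CNS and over both niches, 0 of 10 members passed edgeR's test and 0% of identifiers did (1205, 1242 and 1870 identifiers had an unadjusted p under 0.05; DESeq2 called 29, 6 and 114, or 0.154%, 0.0318% and 0.604%, no member among them). Over both niches, where the counts of a pair were added to give 4 LSK against 4 LK samples, the largest difference was that of Tcf7, 0.14 lower in LSK as a log2 difference of −0.14 ± 0.082 (SE; adjusted p = 0.634, edgeR). It was −0.13 ± 0.090 in BM (adjusted p = 0.872) and −0.14 ± 0.090 in the CNS (adjusted p = 0.815, edgeR). Runx1 differed by 0.13 ± 0.090 in BM (adjusted p = 0.872, edgeR), by 0.04 ± 0.090 in the CNS (adjusted p = 0.949, edgeR) and by 0.08 ± 0.074 over both (adjusted p = 0.808, edgeR). Runx3 (−0.11 ± 0.099, adjusted p = 0.796) and Ikzf1 (−0.08 ± 0.070, adjusted p = 0.788, edgeR) were also lower in LSK over both niches without passing. The other 6 members lay between −0.04 and 0.05, and their 95% intervals reached from −0.30 to 0.29, which bounds what these 8 summed samples could show. Fewer cells of a kind and less RNA per cell cannot be told apart in such bulk libraries.

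**Figure D5:**
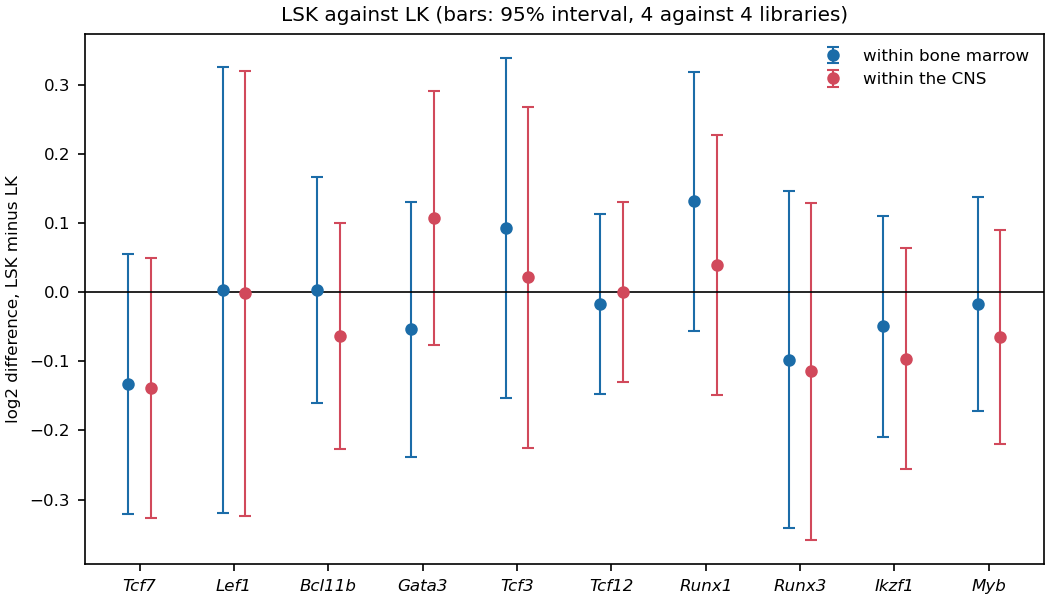
Log2 difference of LSK minus LK for each factor within BM (blue) and within the CNS (red), with 95% intervals from edgeR (4 against 4 libraries). Every interval includes 0; Tcf7 lies at −0.13 and −0.14.

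Genes around the 10 factors were taken from lists chosen with earlier results known, and counts are given between niches over both LPC types. Without the pairs, 0 genes of any list passed. With the pairs, in a fit that called 0.667% of identifiers, 2 of the 21 tested of 23 downstream T-lineage genes passed: Dntt, the terminal transferase that adds bases at V(D)J junctions, rose by 0.97 (adjusted p = 9.98e-06, edgeR) and Il2ra, the interleukin-2 receptor chain, fell (−0.25, adjusted p = 0.0389, edgeR). The median of the list was −0.01, beside 0.00 over all identifiers. Dntt was measured at 145, 36.4, 67.5 and 10.5 CPM in BM LSK against 248, 63.8, 129 and 28.4 in CNS LSK. In LK cells it was measured at 48.1, 51.4, 39.1 and 32.1 CPM in BM against 92.3, 111, 108 and 44.2 CPM in the CNS. Dntt was higher in the CNS in 8 of 8 pairs although the LSK pairs differed widely from one another, and it kept its call with the background index (1.10, adjusted p = 2.54e-05, edgeR) and without any 1 pair. Il2ra was lower in the CNS in 8 of 8 pairs, ranging from 259 to 749 CPM over the libraries. Its call ended without any 1 of 6 pairs and with the background index (−0.16, adjusted p = 0.930, edgeR).

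Of 9 Notch receptors and targets, 8 were tested and 1 passed with the pairs (0.667% of all identifiers did): Hes1, a repressor and direct Notch target, at 5.22 to 10.1 CPM over the libraries and 0.38 higher in the CNS (adjusted p = 0.0343, edgeR; higher in 8 of 8 pairs). The call ended without any 1 of 6 pairs and with the background index (0.46, adjusted p = 0.248, edgeR). The list's median was −0.09. Notch1 itself did not pass (−0.09 with the pairs, adjusted p = 0.400, edgeR), nor did Hes5, which was under 2 CPM in every library (−0.54, adjusted p = 0.283, edgeR). Of 8 inhibitors and partners of E proteins, 6 were tested and 1 passed with the pairs, beside the same 0.667% of identifiers: Lyl1, a partner of E proteins, was measured at 9.85 to 18.9 CPM and fell, with a difference of −0.29 (adjusted p = 0.0452, edgeR; lower in 8 of 8 pairs). That call ended without any 1 of 7 pairs and with the background index (−0.18, adjusted p = 0.952, edgeR). Id2, which blocks E proteins, was measured at 36.6 CPM on average, and Id1 and Id3 stayed under 2 CPM.

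No gene passed in the other lists, with or without the pairs. The 16 tested of 18 relatives and cofactors had a median of 0.00 with the pairs. Among them β-catenin (Ctnnb1, 142 CPM), the Groucho repressor Tle3 (255.5 CPM), Cbfb (71.5 CPM) and the GATA cofactor Zfpm1 (93.8 CPM) were well measured, while Bcl11a, Gata1, Gata2 and Runx1t1 stayed under 2 CPM. The smallest unadjusted p values there belonged to Tle4 (−0.49 ± 0.19, adjusted p = 0.481) and Tcf7l2 (0.74 ± 0.35, adjusted p = 0.536, edgeR without the pairs), at 2.83 and 1.10 CPM. Of 8 readout genes of the Wnt pathway, which acts through TCF and LEF proteins, 6 were tested (median −0.03 with the pairs), and 5 of the 8 stayed under 2 CPM. Axin2 averaged 3.99 CPM. Without the pairs, Nkd1 (1.08 ± 0.35, adjusted p = 0.371, edgeR) and Ccnd1 (−0.33 ± 0.28, adjusted p = 0.794, edgeR) had the smallest unadjusted p values, at under 1 CPM on average. The 11 other early T-cell factors, all tested, had a median of −0.01 with the pairs. Ets1 averaged 254 CPM and Sox4 157 CPM. Hes6 (−0.16 ± 0.054, adjusted p = 0.394) and Sox13 (0.88 ± 0.39, adjusted p = 0.506, edgeR) had the smallest unadjusted p values without the pairs. The 11 tested of 16 B-lineage genes had a median of 0.20 with the pairs. Without the pairs, Rag2 was at 0.76 ± 0.28 (adjusted p = 0.430, edgeR) and Pax5 at 1.10 ± 0.42 (adjusted p = 0.449, edgeR). Both were under 2 CPM in every library.

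Over the 16 libraries, the genes whose log2 levels were most like those of Lef1 among 11639 compared were Hvcn1, a proton channel (Pearson's r 0.881), Cdcp2 (0.855) and L3mbtl3 (0.851). Those most like Tcf7 were Pnpla7 (0.905), Cog1 (0.904) and Jarid2 (0.896). These correlations are descriptions over libraries that share label pairs, sequencing depth and background.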

How the data were processed

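Per the labels' protocols, RNA of sorted cells was turned into libraries by a low-input kit that keeps strand and starts from total RNA. The authors deposited 1 table of whole-number counts for 55414 Ensembl identifiers in 16 libraries. Its name calls the counts normalised, but the deposited totals differ (19163942 to 29232623) and median-of-ratios size factors run from 0.804 to 1.302, so they were treated as raw counts. DESeq2 and GRCm39 are named in the submitters' processing notes, with no role given; the aligner, counter, annotation, strand setting and use of molecular identifiers are not given in the sources used here. Genes that overlap a member on either strand could therefore share its reads: the largest such neighbour held 10.3% of the count of Tcf12, 3.86% of Lef1, 3.46% of Ikzf1 and at most 1.99% of the others. Symbols were matched by identifier for 52081 identifiers, and the number of per-sample columns not used was 0.

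The 18878 identifiers averaging 10 counts or more over the libraries entered a model of 4 group means with TMM scaling in edgeR 4.0.16 (R 4.3.3; two-sided quasi-likelihood test, Benjamini-Hochberg adjustment over all of them, threshold 0.05). LSK against LK over both niches used the added counts of each label pair. The fit was also run on simulated data, but the planted changes were larger than the niche differences of Lef1 and Gata3. That run therefore does not show how the fit performs at their size. Levels are CPM, counts scaled by library, on TMM-scaled library sizes; counts per library were at least 707 for every member, and libraries of 1 group differed beyond sampling noise (11.0 to 42.4 for chi-square divided by its degrees of freedom). Exon lengths and overlaps come from GENCODE models on GRCm38, matched by identifier; no coordinates were converted.

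The members and lists were chosen with earlier results of these data known. In the B-lineage list, 1 gene enters the counts and is not reported here. Named were all 10 members, list genes past the threshold, the 2 genes of each list with the smallest unadjusted p between niches, and the 3 genes most like Lef1 and Tcf7. Whether label pairs pair the libraries was checked by correlating the deviations of the 2 libraries of a pair from their group means: the correlation was over 0.1 in 8 of 8 pairs (0.112 to 0.339 at a mean of at least 10 counts; 0.353 to 0.625 at 50), against a median of −0.07 between different pairs at 10. Deviations from a group's own mean cancel out within the group. Correlations between different pairs are therefore pushed to negative values by construction, and their median is no independent yardstick. The check and its cut-off of 0.1 were set with earlier results on it known. The pairing comes from the description labels, which do not say what a pair shares. Alternatives were the pair as replicate block, the block with the background index, median-of-ratios scaling, DESeq2 1.42.0, no filter, identifiers with a symbol, a block on the title number, unsummed libraries and leaving out each library or pair.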

Additional observations from a re-analysis of the deposited data

Results flagged for a closer look

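In groups of 4 libraries, a library was singled out where its gap to the nearest of the others took up most of the group's range (Dixon's 95% critical value). Of 48 groups examined (40 of member levels and 8 of total counts and background index), 3 were singled out, where chance gives about 2.4. Tcf12 in CNS LK 2 was measured at 377.6 CPM against 404.7 to 407.5 in the other 3 CNS LK libraries. Ikzf1 in BM LK 2 was measured at 268.2 CPM against 314.8 to 318.4. The background index of BM LK 4 was 342.2 CPM against 478.5 to 496.1. Ikzf1 was also lowest in CNS LK 2 (256.7 CPM), the partner library of the LK 2 pair.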

How the results depend on the processing

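Depth gave every member at least 707 counts per library. The share of counting noise in the spread between the 4 libraries of a group was not worked out for each member. Gata3 had the lowest counts, and its spread (SD over mean) in CNS LSK was only 4.62%, so counting noise may be a sizeable part of it. Gene counts past 0.05 were all 0 in the main edgeR fits, which had no block, and moved as follows under the alternatives. Between niches over both LPC types, DESeq2 called 40, no filter 85, the replicate block on the label pair 126 and the block with the background index 18; leaving out pairs under the block gave 78 to 147. In LSK no filter gave 10, the block 26, block with index 4 and block without each pair 9 to 37; in LK these were 14, 12, 4 and 2 to 19. For LSK against LK, DESeq2 and no filter gave 29 and 48 in BM, 6 and 38 in the CNS, and 114 and 94 over both niches, where unsummed libraries gave 45. Leaving out libraries gave 0 to 2 in BM (2 without BM LK 3), 0 to 3 in the CNS (3 without CNS LSK 2) and 0 to 66 over both (66 without pair LSK 2, 18 without LSK 4). A replicate block on the title number called 0 there, and the niche-by-type difference gave 0 under every setting run. Of members other than Lef1, whose niche differences in LK and over both types are given untested, the block changed no call beyond those printed for Gata3.

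Without a filter the median of all identifiers shifted by 0.15 between niches, and Bcl11b (−0.031), Tcf12 (−0.020) and, for LSK against LK in the CNS, Runx1 (−0.029) changed sign; all were short of the threshold throughout. With block and index, Tcf7 (0.000371), Runx3 (0.040) and Pax5 (−0.23) changed sign, as did the Lef1 niche-by-type difference on identifiers with a symbol (0.0014). Leaving out libraries moved Tcf7 from −0.048 to 0.013, Tcf3 from −0.094 to 0.0028 (down to −0.095 under the block), Runx3 from −0.056 to 0.044, the Lef1 niche-by-type difference from −0.14 to 0.099, and Runx1 between LPC types in the CNS from −0.021 to 0.12; under the block Runx3 ran from −0.046 to 0.023 and the Lef1 difference from −0.049 to 0.040. Other than by construction, the cause was not tested.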
